A study of Mus musculus with 8 samples.

Results

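Spon1, Endou, Crtac1, Tnnt1 and Rnd3 are 5 genes of the mouse pituitary whose mRNA levels stood far apart between young and old animals and which have little described role in the gland. They were selected on their FPKM in old against young libraries, out of 49585 gene rows, in the same 8 libraries described here. Their levels are therefore given as a description with no test, and tests were kept for genes outside the 5. All 5 were found in the files and all 5 passed the filter for low values. Every old library exceeded every young one for Spon1 and Endou, and every young library exceeded every old one for Crtac1, Tnnt1 and Rnd3.

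The study sequenced polyadenylated RNA from whole pituitaries of wild-type C57BL/6 mice kept on regular chow in a specific pathogen free facility, with 4 libraries from young mice of 2 to 3 months and 4 from old mice of 18 to 24 months. The labels name no transgene and no treatment, and per the methods the mice had been perfused to clear blood. Whether each library came from a different mouse is not given in the labels, so p-values measure the spread between these libraries, which may be technical. Levels are FPKM, which divides a gene's fragments by its exon length and by the library's total, a unit that allows genes of different length to be compared.

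The 5 genes share no family or pathway. Spon1 encodes F-spondin, a secreted matrix protein with thrombospondin type 1 repeats that guides commissural axons from the floor plate and binds the amyloid precursor protein and the reelin receptor ApoER2. Endou encodes a secreted endoribonuclease that cuts RNA at uridines and carries somatomedin B domains. Crtac1 encodes a secreted acidic protein named after cartilage, also called LOTUS, which blocks the Nogo receptor and so counters signals that stop axon growth. Tnnt1 encodes the slow skeletal isoform of troponin T, which anchors the calcium-sensing troponin complex to tropomyosin on thin filaments. Rnd3, also called RhoE, encodes an atypical small GTPase that stays bound to GTP, and it lowers RhoA signalling by inhibiting the kinase ROCK1 and by acting through p190 RhoGAP. The pituitary itself is a gland of hormone-secreting cells set among endothelial, stromal, stem and immune cells.

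The libraries held 15042321 to 20429604 fragments, and repeats of ribosomal RNA took 33.8 to 40.3% of them in the young and 33.8 to 38.1% in the old. Hormone genes took 12.0 to 14.1% of fragments in young and 9.05 to 11.6% in old libraries. Gh, which encodes growth hormone, fell from 62323 to 24327 FPKM on average (n = 4 each, limma adjusted p = 0.0076), and Lhb, the luteinizing hormone beta subunit, fell from 233 ± 39.3 to 136 ± 9.11 FPKM (limma adjusted p = 0.0440). The Gh call held in all 8 fits that left out a library, whereas the Lhb call held in 1 of 8, without young replicate 2, and was otherwise lost at 0.0780 to 0.118, and it was also lost with no filter and with a pseudocount of 0.01. All 7 hormone genes of the list, which mark the tissue as pituitary, were detected in every library and summed to between 101323 and 160008 FPKM, and the other 5 did not pass the test. Xist was at 22.5 to 43.5 FPKM in all 8 libraries and 4 Y-linked genes had 0 fragments in each. FPKM divides by the whole library, and the median log2 difference of all 23498 genes tested was 0.15 in favour of the old. It was 0.01 when libraries were scaled to their upper quartile and 0.02 when hormone and ribosomal repeat genes were left out of the total. The cause of the shift was not tested, and every difference below is to be read relative to it. In whole-gland RNA, fewer cells of a type and less RNA per cell cannot be told apart.

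Spon1 showed the widest difference of the 5. It was below 1 FPKM in 3 of the young libraries and near 5 FPKM in all the old ones. The gene spans chr7:113765998-114043370 on the plus strand of GRCm38 (ENSMUSG00000038156.16). Its level was 0.263, 1.33, 0.542 and 0.316 FPKM in young replicates 1 to 4 and 4.64, 4.76, 4.96 and 5.30 FPKM in old replicates 1 to 4. The old libraries lay within 1.14-fold of each other, whereas the young ones spread over 5.03-fold, and the groups did not overlap. The lowest old library was 3.50-fold above the highest young one.

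These Spon1 levels rested on 47, 207, 115 and 60 fragments in the young libraries and 776, 913, 993 and 963 in the old. The mean was 0.612 ± 0.491 FPKM in young and 4.92 ± 0.290 FPKM in old (SD, n = 4 each), a ratio of 8.04 and a log2 difference of 3.04 on the log2(FPKM + 0.1) scale used throughout. Young replicate 2 carried a large share of the young mean, and without it the ratio was 13.2. The coefficient of variation was 80.3% in young libraries, where fragment counting alone would give 11.3%, and 5.89% in old libraries, against 3.33% from counting. Among the 14752 protein-coding genes tested, Spon1 stood at percentile 18.4 of the young means and at percentile 61.8 of the old means.

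Endou was also higher in old pituitary. It lies on the minus strand at chr15:97711015-97731339 (ENSMUSG00000022468.12). Young replicates 1 to 4 had 2.12, 1.27, 0.936 and 1.07 FPKM, and old replicates 1 to 4 had 4.80, 8.52, 5.42 and 4.84 FPKM. Old replicate 2 stood above the other old libraries, young replicate 1 stood above the other young ones, and the groups were separated by a 2.27-fold gap. The counts behind these values were 99, 52, 52 and 53 fragments in young and 210, 428, 284 and 230 in old.

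The Endou mean was 1.35 ± 0.532 FPKM in young and 5.89 ± 1.77 FPKM in old (SD, n = 4 each), a ratio of 4.37 and a log2 difference of 2.07. Without old replicate 2 the ratio was 3.72. Its coefficient of variation was 39.4% in young and 30.1% in old, above the 13.0% and 6.12% that fragment counting alone would give. Its place among protein-coding genes went from percentile 30.4 in young to 67.1 in old, so that Endou had the highest mean of the 5 genes in the old gland.

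**Figure D1:**
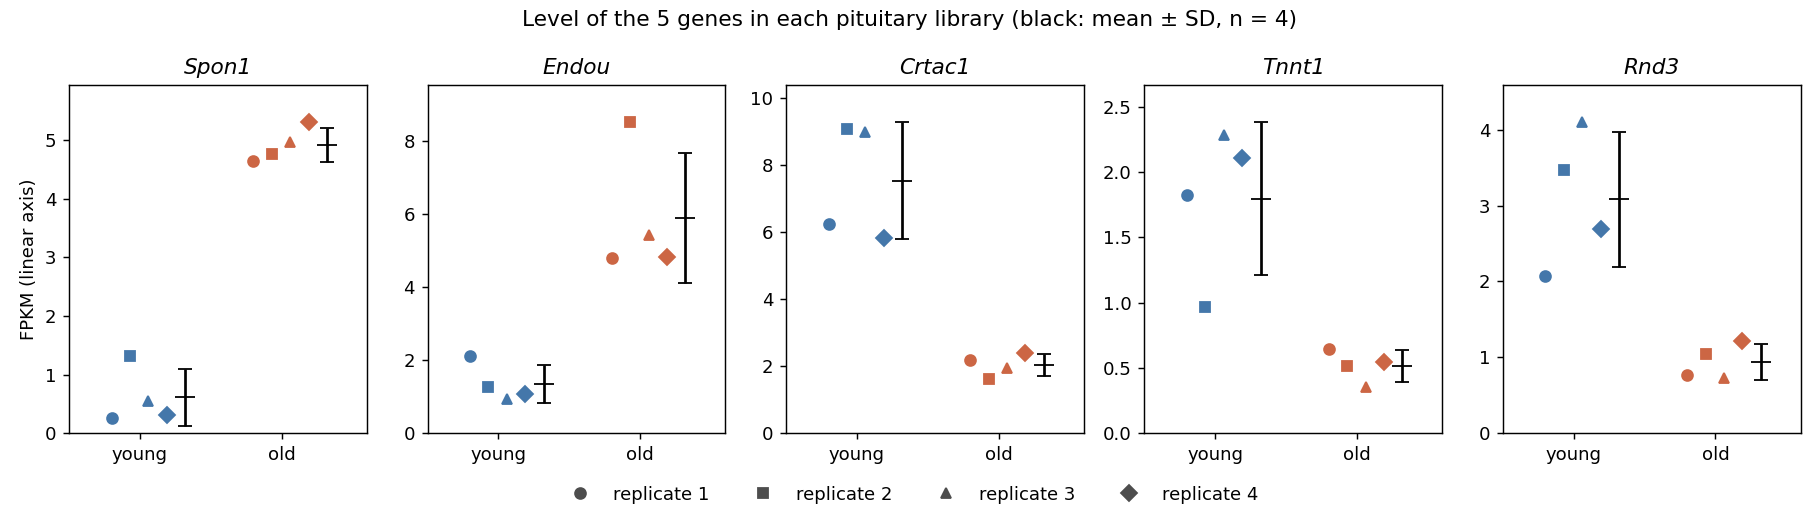
FPKM of Spon1, Endou, Crtac1, Tnnt1 and Rnd3 on a linear axis in each of 4 young (blue) and 4 old (orange) pituitary libraries, with the symbol giving the replicate and the black bar the mean ± SD. Old libraries of Spon1 sit between 4.64 and 5.30 FPKM and those of Endou between 4.80 and 8.52 FPKM, above all young ones, while the other 3 genes are lower in every old library.

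Crtac1, Tnnt1 and Rnd3, the 3 genes with lower levels in old pituitary, each had a promoter window in the RefSeq set for GRCm38.p6, of 300 bases from 250 before to 50 after an annotated start. They are shown because these 3 of the 5 genes were matched in that set. Searched on both strands for the TATA box TATAAA, the box named CCAAT, the E-box CACGTG, the POU factor site ATGNATA and the palindromic response elements of the glucocorticoid and estrogen receptors, they held only the first kind and the second, which are printed in capitals, with ATTGG marking the second on the opposite strand. The windows lie at chr19:42431739-42432038 for Crtac1, chr7:4515926-4516225 for Tnnt1 and chr2:51149062-51149361 for Rnd3, all on the minus strand and printed 5′ to 3′.
Crtac1: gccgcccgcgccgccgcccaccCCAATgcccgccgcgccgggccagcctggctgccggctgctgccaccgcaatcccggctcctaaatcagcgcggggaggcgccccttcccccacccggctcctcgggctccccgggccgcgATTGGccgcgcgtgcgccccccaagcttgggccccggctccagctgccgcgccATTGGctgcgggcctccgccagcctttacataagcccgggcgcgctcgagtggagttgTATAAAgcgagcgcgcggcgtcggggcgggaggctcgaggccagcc
Tnnt1: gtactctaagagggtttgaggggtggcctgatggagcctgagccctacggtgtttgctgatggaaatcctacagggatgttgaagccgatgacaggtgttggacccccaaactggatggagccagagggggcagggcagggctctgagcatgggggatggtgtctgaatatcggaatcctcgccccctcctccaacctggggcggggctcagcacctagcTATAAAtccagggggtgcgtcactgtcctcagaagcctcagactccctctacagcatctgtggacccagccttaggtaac
Rnd3: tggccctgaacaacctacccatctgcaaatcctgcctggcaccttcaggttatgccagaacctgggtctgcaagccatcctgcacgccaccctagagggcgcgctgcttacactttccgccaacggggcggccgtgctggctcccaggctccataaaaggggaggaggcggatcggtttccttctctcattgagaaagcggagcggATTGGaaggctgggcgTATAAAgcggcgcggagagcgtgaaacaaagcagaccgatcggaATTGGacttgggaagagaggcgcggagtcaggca

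TATAAA began 30 bases before the RefSeq start of Tnnt1, 28 bases before that of Rnd3 and 4 bases after that of Crtac1. The gene spans printed for Tnnt1 and Crtac1 come from GENCODE and end at 4516382 and 42431783, away from these starts. For these 2 genes the offsets, and before or after, therefore hold for the RefSeq start only. This hexamer was present in 13.6% of the 32851 promoter windows of the same length. CCAAT occurred in the Crtac1 window at 3 positions and in the Rnd3 window at 2, and not in that of Tnnt1, against 37.4% of all windows with at least 1 match. The Crtac1 window was 76.7% G or C with 41 CG dinucleotides, that of Rnd3 59.7% with 20, and that of Tnnt1 58.3% with 6, where the median window had 52.7% and 7. A second RefSeq window of Crtac1, at chr19:42431445-42431744, held none of the 6 motifs. A match is a description of the letters and no evidence of binding.

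Crtac1 had the highest mean of the 5 genes in the young gland and fell below Spon1 and Endou in the old. It spans chr19:42283035-42431783 on the minus strand (ENSMUSG00000042401.7). Its level was 6.25, 9.07, 9.00 and 5.81 FPKM in young replicates 1 to 4 and 2.18, 1.63, 1.94 and 2.38 FPKM in old replicates 1 to 4. Young libraries formed a pair near 9 and a pair near 6, and even the lower pair stood 2.44-fold above the highest old library.

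Crtac1 was counted on 281, 357, 481 and 278 fragments in young and 92, 79, 98 and 109 in old libraries. The mean was 7.53 ± 1.75 FPKM in young and 2.04 ± 0.323 FPKM in old (SD, n = 4 each), which made it 3.70-fold higher in young, with a log2 difference of -1.82. The old spread, a coefficient of variation of 15.8%, was not far above the 10.4% of fragment counting. A pair of annotated genes overlaps the Crtac1 locus, the processed pseudogene AC151978.1 on its strand and the antisense gene AC144792.1 on the other. Neither had a row of its own in the files, and whether counting used strand is not given in the sources used here, so their share in the Crtac1 values cannot be told apart.

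Tnnt1 was low in the young gland and lower in the old, where it had the lowest mean of the 5 genes. It lies at chr7:4504570-4516382 on the minus strand (ENSMUSG00000064179.13). Young replicates 1 to 4 had 1.82, 0.965, 2.29 and 2.11 FPKM, and old replicates 1 to 4 had 0.648, 0.515, 0.353 and 0.545 FPKM. Young replicate 2 was 1.49-fold above the highest old library, and the other young libraries stood well clear of the old ones.

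Tnnt1 had the fewest fragments of the 5, with 69, 32, 103 and 85 in young and 23, 21, 15 and 21 in old libraries. Its mean was 1.80 ± 0.586 FPKM in young and 0.515 ± 0.122 FPKM in old (SD, n = 4 each), 3.48-fold higher in young, with a log2 difference of -1.58. The old libraries varied by 23.7%, about what fragment counting alone gives at this depth (22.7%), so differences among the old libraries were not detectable at this depth. With a pseudocount of 1 in place of 0.1 the log2 difference was -0.86, since a gene this low is compressed by the constant.

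Rnd3 was lower in old pituitary as well. It spans chr2:51130438-51149111 on the minus strand (ENSMUSG00000017144.8). Its level was 2.07, 3.46, 4.10 and 2.69 FPKM in young replicates 1 to 4 and 0.771, 1.05, 0.726 and 1.21 FPKM in old replicates 1 to 4. The lowest young library was 1.71-fold above the highest old one. The counts were 158, 231, 371 and 218 fragments in young and 55, 86, 62 and 94 in old.

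The Rnd3 mean was 3.08 ± 0.885 FPKM in young and 0.940 ± 0.232 FPKM in old (SD, n = 4 each), an old to young ratio of 0.305 and a log2 difference of -1.60. Its coefficient of variation was 28.7% in young and 24.6% in old, against 6.70% and 11.9% from counting. Its percentile among protein-coding genes went from 50.6 to 22.6, that of Crtac1 from 76.4 to 36.6 and that of Tnnt1 from 36.3 to 14.9.

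For scale, 3147 of 23498 tested genes (13.4%) had all 4 old libraries above all 4 young ones and 483 (2.06%) had all 4 below. With limma and an adjusted p under 0.05 as the call, 547 genes (2.33%) differed, of which 436 (1.86%) were higher and 111 (0.472%) lower in old, and with libraries scaled by relative log expression 208 were higher and 214 lower. The 5 genes ranked 32 (Spon1), 163 (Endou), 278 (Crtac1), 444 (Rnd3) and 462 (Tnnt1) by absolute log2 difference among the 23498 tested. These shares and ranks come from the contrast that chose the genes and carry no support for them.

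The order of the 5 levels differed between the ages. In young pituitary the means ran from Crtac1 through Rnd3, Tnnt1 and Endou to Spon1. Only Crtac1 and Rnd3 among these neighbours had ranges that did not overlap. Tnnt1 exceeded Endou in 2 of 4 young libraries, so those neighbours could not be ordered within their spread. In old pituitary the means ran from Endou through Spon1, Crtac1 and Rnd3 to Tnnt1, and only Endou and Spon1 overlapped, with Endou above Spon1 in 3 of 4 libraries.

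The 5 genes did not rank the libraries of one age in the same way. Among young libraries, replicate 2 was highest for Spon1 and Crtac1, replicate 1 for Endou, and replicate 3 for Tnnt1 and Rnd3, while replicate 2 was lowest for Tnnt1. Among old libraries, replicate 4 was highest for Spon1, Crtac1 and Rnd3, replicate 2 for Endou and replicate 1 for Tnnt1.

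Genes related to the 5 by family, domain, receptor or pathway were not among the 5 chosen and were tested. Their lists were drawn up with earlier results of these data known, so their p-values and shares may not be independent of those results. Of 126 such genes in 10 lists, 102 passed the filter of a mean of 0.1 FPKM. At a limma adjusted p under 0.05, 4 of the 102 were higher (3.92%, against 1.86% of all genes) and 2 lower (1.96%, against 0.472%) in old. At an unadjusted p under 0.05, 18 of the 102 were higher and 10 lower, where 18% of all genes were higher and 3.79% lower, and voom on recovered fragments called 10 higher and 5 lower, where it called 6.11% of all genes higher and 1.52% lower. Their median log2 difference was 0.04, beside 0.15 for all genes, and 11 had all old libraries above the young (10.8%, against 13.4% of all genes) and 6 below (5.88%, against 2.06%). With so few calls, no list is set apart from other genes here.

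**Figure D2:**
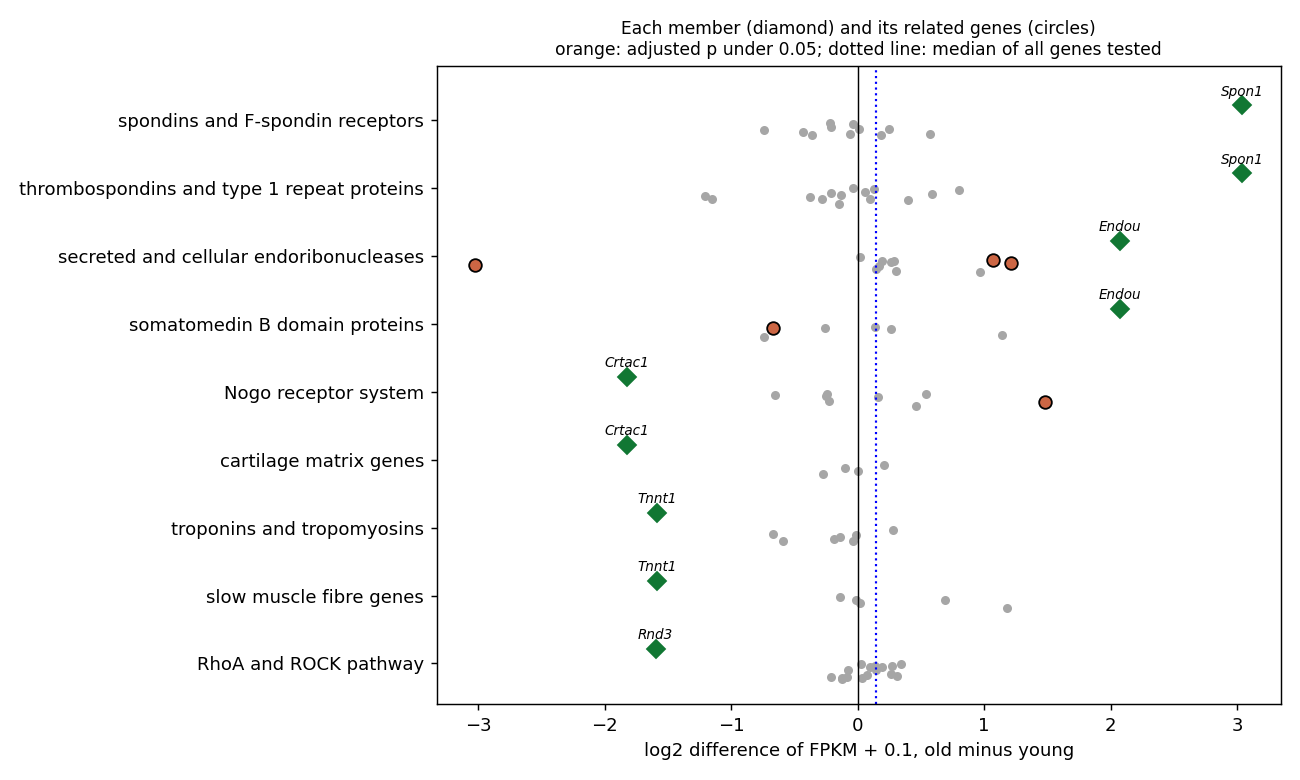
Log2 difference of FPKM + 0.1, old minus young, for the related genes tested in each of 9 lists (circles, orange where the limma adjusted p was under 0.05) with the gene each list belongs to as a green diamond; the dotted line marks the median of all genes tested, 0.15. Most circles lie between -1 and 1, with Rnase1 at -3.02 the farthest circle at this pseudocount, and 5 genes in 3 lists are orange. The 5 genes were chosen for a large difference, so the distance of the diamonds from 0 is no result.

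Of the spondins and F-spondin receptors, 11 of 13 were tested and limma called 0, with 0 higher and 1 lower at an unadjusted p under 0.05 (18% and 3.79% of all genes) and 1 lower by voom (Dab1, the adaptor of reelin receptors). Their median log2 difference was -0.06. Spon2, the nearest relative of Spon1, had 0.207 ± 0.0777 FPKM in young and 0.147 ± 0.0879 FPKM in old (log2 difference -0.36, limma adjusted p = 0.525). Lrp8, which encodes the receptor ApoER2, had 1.85 ± 0.378 and 1.74 ± 0.169 FPKM (log2 difference -0.06, limma adjusted p = 0.855). App, which encodes the amyloid precursor protein, had 192 ± 23.4 and 217 ± 14.3 FPKM (limma adjusted p = 0.388). Neither the relative nor the known binding partners thus differed past the threshold, at levels from far below to far above that of Spon1.

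Of 18 thrombospondins and other proteins with type 1 repeats or related matrix roles, 14 were tested, with a median log2 difference of -0.08. Limma called 0 of them, with 3 higher and 2 lower at an unadjusted p under 0.05 (18% and 3.79% of all genes), and voom called 2 higher (Thsd7a and Thsd7b) and 2 lower (Thbs1 and Cyr61).

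Of the 9 lists described here, the ribonuclease relatives of Endou held the largest share of calls. Of 13 secreted and cellular endoribonucleases, 11 were tested, with a median log2 difference of 0.27. Limma and voom each called 2 higher and 1 lower in old. Over all genes limma called 1.86% higher and 0.472% lower, and voom 6.11% and 1.52%. At an unadjusted p under 0.05, 3 were higher and 1 lower (18% and 3.79% of all genes). Rnase4, a secreted ribonuclease that cuts after uridine, had 3.56, 3.40, 3.02 and 4.60 FPKM in young and 6.41, 7.78, 8.32 and 8.25 FPKM in old libraries. Its mean rose from 3.64 ± 0.678 to 7.69 ± 0.885 FPKM, 2.11-fold (log2 difference 1.07, SE 0.15, limma adjusted p = 0.0226). All old libraries stood above all young ones.

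Ang, which encodes angiogenin, a ribonuclease that cuts tRNA, had 1.42, 1.25, 0.654 and 1.03 FPKM in young and 2.59, 2.68, 2.49 and 2.52 FPKM in old. It rose 2.36-fold, from 1.09 ± 0.330 to 2.57 ± 0.0850 FPKM (log2 difference 1.21, SE 0.21, limma adjusted p = 0.0364). The counts were 31, 24, 17 and 24 fragments in young and 53, 63, 61 and 56 in old. Here too the old SD was smaller than fragment counting alone would give. Ang and Rnase4 share 219 exonic bases on the same strand. How fragments from those bases were counted is not given in the sources used here, so both values are uncertain to that extent. The 2 calls higher in old thus come from overlapping genes. The Ang call was lost at adjusted p of 0.0743 to 0.0765 under 3 other scalings.

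Rnase1, the pancreatic-type ribonuclease made by endothelial cells, moved the opposite way. It had 0.480, 1.78, 1.61 and 0.507 FPKM in young libraries and 0.0640, 0, 0 and 0.0589 FPKM in old. That was 75 fragments over the young libraries and 2 over the old, a rate ratio of 37.7 with a 95% exact binomial interval from 10.1 to 317 that covers counting error only (log2 difference -3.02, SE 0.45, limma adjusted p = 0.0244). With so few old fragments the fitted difference depended on the pseudocount, from -5.12 at 0.01 to -0.96 at 1, while the call held at both. Markers of endothelial cells summed to between 61.7 and 87.7 FPKM in young libraries and between 64.6 and 89.6 FPKM in old ones, with 0 of 5 called by limma, 0 at an unadjusted p under 0.05 and 0 by voom.

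The calls on Rnase4, Ang and Rnase1 were each lost in some of the fits that left out a library. Rnase4 passed in 3 of 8 fits that left out a library, and missed at adjusted p of 0.0503 to 0.0710 without old replicates 2, 3 and 4 or young replicates 1 and 3. Ang passed in 2 of 8, without young replicate 2 or 3, and otherwise reached 0.0537 to 0.102. Rnase1 passed in 4 of 8, and missed at 0.0610 to 0.0750 without old replicates 1, 2 and 3 or young replicate 3.

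Of 7 proteins with somatomedin B domains, the other feature of Endou, 6 were tested, with a median log2 difference of -0.06. Limma called 0 higher and 1 lower in old (1.86% and 0.472% of all genes). At an unadjusted p under 0.05, 1 was higher and 2 lower (18% and 3.79% of all genes). Voom called Vtn higher and Enpp1 lower (6.11% and 1.52% of all genes). Vtn had a mean of 1.48 FPKM in young and 3.54 FPKM in old, with the groups overlapping (limma adjusted p = 0.112). Enpp1, an enzyme that makes pyrophosphate outside cells, had 0.261, 0.259, 0.286 and 0.368 FPKM in young and 0.139, 0.148, 0.147 and 0.150 FPKM in old. It fell from 0.294 ± 0.0510 to 0.146 ± 0.00478 FPKM (log2 difference -0.67, SE 0.11, limma adjusted p = 0.0287). These levels rested on 46, 40, 60 and 69 fragments in young and 23, 28, 29 and 27 in old. The old SD was smaller than fragment counting alone would give at that depth, so it understates the error. The call was lost with a mean-variance trend or a pseudocount of 1 (adjusted p from 0.135 to 0.144) and in 6 of 8 fits without a library, all but those without young replicates 2 and 4, at 0.0605 to 0.0849.

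Of 10 genes of the Nogo receptor system around Crtac1, 8 were tested, with a median log2 difference of -0.03. Limma called 1 higher (1.86% of all genes) and 0 lower. At an unadjusted p under 0.05, 2 were higher and 0 lower (18% and 3.79% of all genes). Voom called 2 higher (6.11% of all genes), Pirb and Omg. Omg had a mean of 3.88 FPKM in young and 5.69 FPKM in old, with every old library above the young (limma adjusted p = 0.0536). Pirb, a receptor of myeloid cells that also binds Nogo and MHC class I, had 0.0781, 0.149, 0.142 and 0.135 FPKM in young and 0.542, 0.532, 0.592 and 0.448 FPKM in old. It rose 4.20-fold, from 0.126 ± 0.0324 to 0.528 ± 0.0599 FPKM (log2 difference 1.48, SE 0.14, limma adjusted p = 0.0076), and passed in 8 of 8 fits without a library. Pirb was counted on 6, 10, 13 and 11 fragments in young and 39, 44, 51 and 35 in old. Macrophage markers moved with it, with a summed level between 29.1 and 49.7 FPKM in young libraries and between 63.5 and 86.6 FPKM in old ones. All 6 of 6 had every old library above the young, where 13.4% of all genes did. Limma called 2 higher (Lyz2 and C1qb) and voom all 6, where 1.86% and 6.11% of all genes were called higher. The Lyz2 call was lost in 7 of 8 fits without a library and in 5 of 9 other settings, and the C1qb call in 5 of 8 and 0 of 9. The part of these markers in the Pirb result was not tested. Rtn4r, the Nogo receptor that Crtac1 protein blocks, had 0.352 ± 0.141 and 0.196 ± 0.121 FPKM (log2 difference -0.65, limma adjusted p = 0.310), on 50 and 28 fragments in all.

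Cartilage genes, the source of the Crtac1 name, differed widely in level. Of 10, 4 passed the filter, with a median log2 difference of -0.05, and limma called 0, with 0 at an unadjusted p under 0.05 and 0 by voom. Those 4 had means in young and old of 9.34 and 10.2 FPKM (Hapln1), 2.12 and 1.73 (Sox9), 0.964 and 0.953 (Col11a2) and 0.421 and 0.395 (Col2a1). Matn1 and Matn3, which encode matrilins of cartilage, were at 0 in all 8 libraries, and Acan, which encodes aggrecan, was below 0.1 FPKM in each.

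Tnnt1 was the only troponin T gene that passed the filter. Tnnt2, the cardiac isoform, had 8 fragments over the young and 7 over the old libraries, and Tnnt3, the fast skeletal isoform, had 6 and 1. Tnni1, the slow skeletal troponin I that pairs with Tnnt1 in muscle, had 5 fragments in young and 0 in old, where a count of 0 allows up to 3 in each library. Tnnc1, the slow troponin C, had 0.715 ± 0.315 and 0.664 ± 0.133 FPKM (log2 difference -0.01, limma adjusted p = 0.987).

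Of 11 troponins and tropomyosins, 7 were tested, with a median log2 difference of -0.14. Limma called 0 of them, with 0 higher and 2 lower at an unadjusted p under 0.05 (18% and 3.79% of all genes), and voom called 0. Of 9 genes of slow muscle fibres, 5 were tested, with a median of 0.02. Limma called 0 of these, with 2 higher and 0 lower at that unadjusted threshold, and voom called 1 higher (Casq2, calsequestrin of slow and cardiac muscle).

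The 13 skeletal muscle markers summed to between 2.76 and 4.12 FPKM in young libraries and between 5.39 and 8.89 FPKM in old ones, without overlap. A sum without Pvalb was added outside the planned lists. The other 12 summed to between 2.39 and 3.54 FPKM in young libraries and between 2.03 and 3.47 FPKM in old ones, which overlapped. Myh1, Myh2, Myh4 and Myl1, which encode fast myosin chains, were below 0.1 FPKM in every library. Of the 13, 6 were tested. Of these, 2 were higher at an unadjusted p under 0.05 (18% of all genes), and 2 had every old library above the young (13.4%). Limma and voom each called 1 higher (1.86% and 6.11% of all genes), Pvalb. Its level rose from 0.399 ± 0.145 to 3.90 ± 2.07 FPKM (limma adjusted p = 0.0201), a call lost in 4 of 8 fits without a library. Of 6 heart muscle markers 3 were tested, and limma called 1 lower (0.472% of all genes). Ryr2, the calcium release channel, fell from 0.786 ± 0.131 to 0.362 ± 0.0292 FPKM (limma adjusted p = 0.0209), a call lost in 5 of 8 fits without a library at adjusted p up to 0.0635.

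Rnd1 and Rnd2, the other genes of the Rnd3 branch, did not pass the main test, and Rnd3 itself was chosen for its difference. Rnd1 had 0.721 ± 0.121 FPKM in young and 0.849 ± 0.289 FPKM in old (log2 difference 0.16, limma adjusted p = 0.739). Rnd2 had 18.9, 18.0, 17.1 and 16.9 FPKM in young and 23.4, 21.1, 27.6 and 23.4 FPKM in old, all old libraries above the young (log2 difference 0.42, SE 0.11, limma adjusted p = 0.0859). Rnd2 passed under 4 alternatives at adjusted p from 0.0191 to 0.0489, but under 3 other scalings its log2 difference was 0.27 to 0.29 at adjusted p from 0.232 to 0.287, and it missed in all 8 fits without a library (0.125 to 0.195). In both ages Rnd2 was therefore the most abundant of the 3 Rnd genes per length, and the young gland held Rnd3 above Rnd1 while the means of the old gland were 0.940 and 0.849 FPKM.

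All 16 genes of the RhoA and ROCK pathway, on which Rnd3 acts, were tested, with a median log2 difference of 0.09 and a range from -0.21 to 0.35. Limma called 0, with 3 higher and 0 lower at an unadjusted p under 0.05, a share near the 18% of all genes that were higher, and voom called 0. Rhoa, the GTPase whose signal Rnd3 lowers, had 16.5 ± 1.37 and 18.7 ± 1.40 FPKM (limma adjusted p = 0.345). Rock1, the kinase that Rnd3 binds, had 10.9 ± 1.49 and 11.9 ± 0.297 FPKM (limma adjusted p = 0.531), and Rock2 had 7.62 ± 1.49 and 6.52 ± 0.764 FPKM (limma adjusted p = 0.489).

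**Figure D3:**
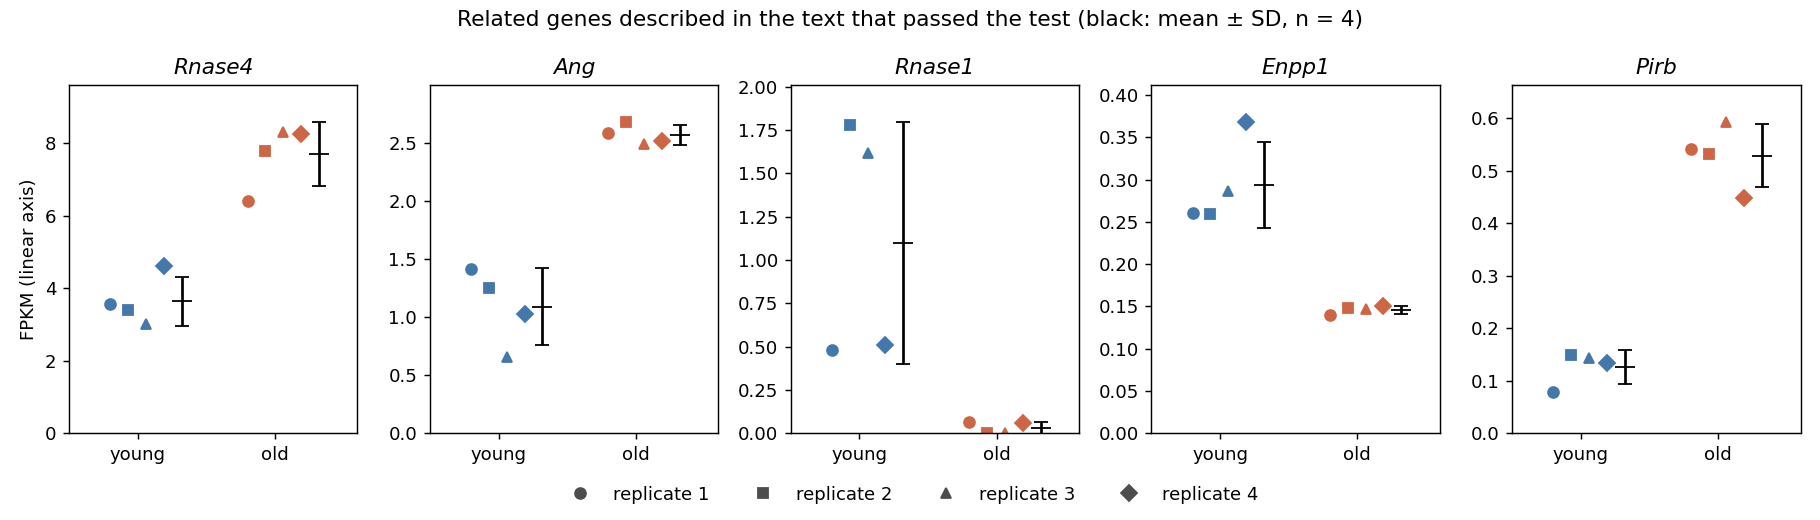
FPKM on a linear axis of 5 related genes that passed the test, in 4 young (blue) and 4 old (orange) libraries, with the black bar giving the mean ± SD. Rnase4, Ang and Pirb are higher and Rnase1 and Enpp1 lower in every old library than in any young one, with Rnase1 at 0 in 2 old libraries.

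The genes next to the 5 loci were compared to see whether a difference extended along the chromosome. Of the 10 nearest tested protein-coding genes, 1 on each side of every locus, limma called 0, with 3 higher and 2 lower at an unadjusted p under 0.05 (18% and 3.79% of all genes), and voom called 2 higher (Rapgef3 and Rbm43) and 1 lower (Golga7b). Rras2, 3.41 kb from Spon1, had 0.925 ± 0.114 and 0.698 ± 0.188 FPKM (log2 difference -0.39, limma adjusted p = 0.282), and Far1, 194 kb away on the other side, differed by -0.26 on the log2 scale (limma adjusted p = 0.218). Both values had the sign opposite to that of Spon1.

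Beside Endou, Rpap3 differed by 0.14 on the log2 scale (limma adjusted p = 0.561) and Rapgef3 by 0.35 (limma adjusted p = 0.0868). Beside Crtac1, Golga7b, 12.7 kb away, had 1.06 ± 0.219 and 0.574 ± 0.113 FPKM, with every old library below every young one (log2 difference -0.78, limma adjusted p = 0.0649), and it passed under 3 other scalings and with voom at adjusted p from 0.0329 to 0.0445, and missed in all 8 fits without a library (0.0909 to 0.144). R3hcc1l, on the other side of Crtac1, differed by 0.31 (limma adjusted p = 0.142).

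Tnni3, the cardiac troponin I gene 1.92 kb from Tnnt1, had 0.405 ± 0.165 and 0.349 ± 0.158 FPKM (log2 difference -0.19, limma adjusted p = 0.779), and Ppp1r12c on the other side differed by 0.14 (limma adjusted p = 0.520). Rnd3 lies alone, with Mmadhc 834 kb and Rbm43 775 kb away, and these differed by 0.26 (limma adjusted p = 0.283) and 0.49 (limma adjusted p = 0.0690).

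The profiles most like each of the 5 genes were sought among 11829 genes averaging 1 FPKM or more, by the root mean square difference of centred log2(FPKM + 0.1) values over the 8 libraries. Since the age difference dominates each profile, this measure mostly finds genes with a difference of the same size, and it is given without a test. Crtac1 and Rnd3 were each the nearest profile to the other, at 0.29 log2 units, where their own values scattered by 0.94 and 0.86 around their means. Next to Crtac1 were Pcdh10, a protocadherin (0.31), and Egr2, an early growth response factor (0.33). Next to Rnd3 were Pappa2, a protease of insulin-like growth factor binding proteins (0.36), and Gh (0.36).

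Tnnt1 had the closest matches, with Nefl, the light neurofilament chain (0.21), Scd1, a stearoyl-CoA desaturase (0.24), and Aplnr, the apelin receptor (0.26), all of which were, like Tnnt1, lowest among young libraries in replicate 2. Endou was nearest to Upp1, a uridine phosphorylase (0.36), Mrc2, a collagen uptake receptor (0.43), and Rhbdl2, a membrane protease (0.43). Spon1 had the most distant matches, with Pvalb, a calcium-binding protein of fast muscle and neurons (0.60), Cd36, a fatty acid receptor (0.62), and the immunoglobulin segment Igkv1-110 (0.64), and its own scatter was 1.61. Pvalb, Cd36, Igkv1-110 and Upp1 averaged under 1 FPKM in young libraries, so they passed the filter only through the old ones. Rnd3, Pcdh10, Egr2, Nefl and Scd1 averaged under 1 FPKM in old libraries, so they passed it only through the young ones.

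**Figure D4:**
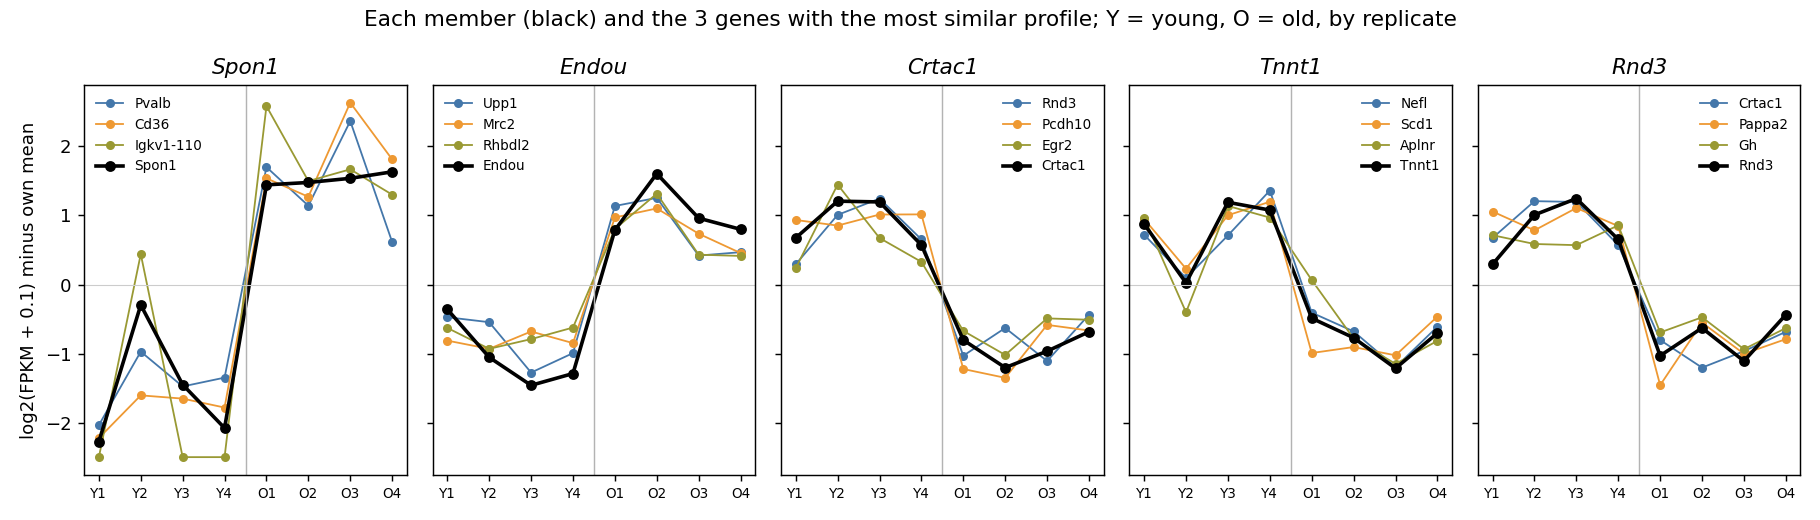
Log2(FPKM + 0.1) minus each gene's own mean over 8 libraries (Y1 to Y4 young, O1 to O4 old) for Spon1, Endou, Crtac1, Tnnt1 and Rnd3 in black and the 3 genes with the smallest root mean square difference in colour. Crtac1 and Rnd3 appear in each other's panel at 0.29 log2 units, and the Spon1 matches lie farthest from it, at 0.60 to 0.64.

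Other cell types that a whole gland could hold were followed by marker lists, and their part in the 5 differences was not tested. Fibroblast markers summed to between 64.2 and 78.0 FPKM in young libraries and between 44.1 and 73.3 FPKM in old ones. Limma called 2 of 6 lower (0.472% of all genes) and voom 3 (1.52%). Col1a1 fell from 3.24 ± 0.536 to 1.04 ± 0.180 FPKM (limma adjusted p = 0.0107) and Col3a1 from 2.55 ± 0.474 to 0.784 ± 0.205 FPKM (limma adjusted p = 0.0179). The Col1a1 call held in 8 of 8 fits without a library and the Col3a1 call in 5 of 8. Of 2 oligodendrocyte markers tested limma called 1 higher (1.86% of all genes), Mbp, which encodes myelin basic protein. It rose from 3.76 ± 0.170 to 5.13 ± 0.268 FPKM (limma adjusted p = 0.0482), a call lost in 8 of 8 fits without a library (0.0629 to 0.127) and in 4 of 9 other settings. The list summed to between 4.08 and 4.59 FPKM in young libraries and between 5.38 and 6.81 FPKM in old ones. Posterior lobe markers summed to between 0.447 and 0.690 FPKM in young libraries and between 1.06 and 9.39 FPKM in old ones, and limma called 0 of 3, with 1 higher at an unadjusted p under 0.05 (18% of all genes) and 1 higher by voom. Pituitary stem cell markers summed to between 92.5 and 123 FPKM in young libraries and between 103 and 124 FPKM in old ones, with 0 of 6 called by limma, 1 higher and 1 lower at that threshold, and 0 by voom. Markers of keratinocytes (3 tested), meninges (3), pericytes and smooth muscle (7), neurons (4) and blood (5) had 0 calls by limma, with 1 higher for meninges, 1 higher and 1 lower for pericytes and 1 lower for neurons at an unadjusted p under 0.05 (18% and 3.79% of all genes), and with Myh11 higher and Camk2a lower by voom. Blood content was uneven, as its markers summed to between 13.0 and 110 FPKM in young libraries and between 15.9 and 124 FPKM in old ones. Their log2 differences ran from 0.32 to 1.10, with a median of 0.84.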

How the data were processed

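The data were 8 bulk mRNA libraries of mouse pituitary, 4 young and 4 old, grouped by their labels. Per the submitters' processing notes and methods, the authors used CASAVA 1.9, STAR 2.6.1a, featureCounts and edgeR 3.28.1 with GRCm38, with an annotation release and strand setting not given in the sources used here. An FPKM value per gene and library was deposited by the authors. The 5 genes and all lists were chosen with earlier results of these data known.

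The study compared counts, but FPKM was deposited, so limma 3.58.1 (R 4.3.3) was run on log2(FPKM + 0.1) over 23498 genes averaging 0.1 FPKM or more, without trend or block, with Benjamini-Hochberg adjustment over all genes and a threshold of 0.05. The script was tested on simulated data. Fragments were recovered from FPKM with GENCODE M21 exon lengths (GRCm38) for 43185 of 49585 rows and fitted lengths for 5475, Endou and Crtac1 included. In each library 91.8 to 92.7% of low values were whole within 0.01. Libraries of one age differed beyond sampling noise (chi-square per degree of freedom 9.10 to 23.6).

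Named genes were the 5, 13 fixed relatives, up to 4 called genes per related list, flanking genes, the 3 most similar profiles, hormone genes and called markers, and other names were added after their values were seen. Promoter sequences are from RefSeq (GRCm38.p6), where 3 of the 5 genes matched. Alternatives were the pseudocount, filter, trend, scaling, a replicate block, voom on recovered fragments and leaving out each library. A list of related genes that enters the totals, with 1 of its genes called, is not reported here.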

Additional observations from a re-analysis of the deposited data

Results flagged for a closer look

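In a check of the 4 libraries of each age for 59 named genes, 118 groups in all, 7 groups held a library farther from the other 3 than Dixon's 95% limit allows, and chance marks about 1 in 20 groups. Of the 5 genes, Endou alone was marked, with 8.52 FPKM in old replicate 2 where the other old libraries had 4.80 to 5.42 FPKM. Igkv1-110, a profile close to Spon1, had 0.663 FPKM in young replicate 2, on 4 fragments, and 0 in the other young libraries, and Spon1 was also highest in that young library. Aplnr, a profile close to Tnnt1, had 1.76 FPKM in young replicate 2 against 4.70 to 5.29 FPKM in the others, and Tnnt1 was also lowest there. Tnnt3 had 0 FPKM in young replicate 2, where the others had 0.0618 to 0.0735 FPKM, and 0.0392 FPKM in old replicate 1, where the others had 0, on 6 and 1 fragments in all. Tnni1 had 0.0369 FPKM in young replicate 2 against 0.0136 to 0.0162 FPKM in the others, on 5 fragments in all. Col1a1 had 1.31 FPKM in old replicate 2 against 0.937 to 0.965 FPKM in the others. Of these 7, 4 concern young replicate 2, the library with the fewest fragments (15042321), and the part of that library in them was not tested. Igkv1-110 and Aplnr were picked for profiles like those of Spon1 and Tnnt1, so sharing an extreme library with them is no separate result. The Tnnt3 and Tnni1 marks rest on 0 to 2 fragments per library, too few for the limit to mean much. The count of 4 is therefore no result about that library.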

How the results depend on the processing

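The direction of the 5 genes' differences was the same under every alternative run on them, namely 5 changes of pseudocount or scaling and each of the 8 libraries left out. A pseudocount of 1 moved the log2 difference to 1.92 (Spon1), 1.55 (Endou), -1.47 (Crtac1), -0.86 (Tnnt1) and -1.05 (Rnd3), and without 1 library it ranged from 2.79 to 3.45, 1.88 to 2.30, -1.93 to -1.72, -1.84 to -1.44 and -1.76 to -1.45. Over all genes, 436 higher and 111 lower in old, the number higher was 208 with relative log expression scaling, 211 with upper-quartile scaling, 213 without hormone and ribosomal repeat genes in the total, 796 at a mean of at least 1 FPKM, 263 with no filter, 705 with a trend, 689 with a pseudocount of 1 and 1436 with voom on recovered fragments, and 64 to 327 without 1 library. The number lower was 214, 204 and 187 under the 3 scalings, 356 with voom and 21 to 163 without 1 library. Of the related genes, 4 higher and 2 lower, 8 and 1 passed with a trend, 7 and 1 with a pseudocount of 1 and 10 and 5 with voom, 0 were lower at a mean of at least 1 FPKM, where fewer genes are tested, and 1 to 4 and 0 to 2 passed without 1 library. Equal replicate numbers did not pair the libraries (correlations of -0.037 to 0.037, and not every library correlated best with its own number), and a fit with the replicate number as a block called 4 genes higher and 0 lower over all genes and 0 related genes either way. No named gene changed direction while past the threshold, and the cause of each other move was not tested. Of the 5 genes, Tnnt1 had the fewest fragments, 15 to 23 per old library.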

Other observations

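Reln encodes reelin, a ligand that shares receptors with F-spondin, and it was singled out after its values were seen. Its level was 5.89, 27.9, 17.3 and 6.43 FPKM in young replicates 1 to 4, so that it ranked the young libraries in the same order as Spon1, from replicate 1 through 4 and 3 to 2. In old replicates 1 to 4 it was 14.9, 11.8, 16.3 and 31.7 FPKM, and the ages did not differ past the threshold (limma adjusted p = 0.581).

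Among the matrix genes with type 1 repeats, Cyr61 and Thbs1 lay opposite to Spon1, and they too were singled out after their values were seen. Other genes of that list lay on the side of Spon1, with log2 differences of 0.39 (Thsd7a), 0.59 (Thsd7b) and 0.80 (Nov). At an unadjusted limma p under 0.05, 3 of the list were higher and 2 lower (18% and 3.79% of all genes). Limma called 0 of them after adjustment. Cyr61, a matricellular protein of the CCN family, had a mean of 22.4 FPKM in young and 10.9 FPKM in old, with all old libraries below the young (log2 difference -1.15, limma adjusted p = 0.0992). Thbs1, which encodes thrombospondin 1, had 3.27 and 1.47 FPKM (log2 difference -1.21, limma adjusted p = 0.137), with the groups overlapping.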
